A study of Homo sapiens with 6 samples.

Results

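The 43 genes described here act in DNA repair or in the checkpoint that responds to DNA damage. They were chosen by name from the known repair pathways, with earlier results of these data known. Every probe set whose only gene symbol in the platform annotation was one of the 43 counted as theirs. Of the 43 genes, 41 had such a probe set, with 68 probe sets between them, among 11963 genes on the array. BRCA2 and FANCA are not analysed here. Of the 41 genes, 40 lay above the filter on dim probe sets (a mean signal of about 47.6), and 8041 genes of the array did. The remaining one, XRCC3, a recombination factor, had signals of 33.1 and 47.8 in mock cells, 4.5 and 31.8 in the MT1-MMP siRNA group and 84.2 and 66.0 in the integrin alpha3 siRNA group, and was not tested.

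Expression had been measured in HT1080 cells, an established line from a human fibrosarcoma, on 6 single-colour oligonucleotide arrays, 2 for each of 3 groups. All groups carried the pGUS vector with GFP. It expressed nothing else in the mock group, an siRNA against MT1-MMP in the first siRNA group, and an siRNA against integrin alpha3 in the other. The labels do not say whether the cells were clones or pools, nor whether a group's 2 arrays stand for separate cultures. The p-values therefore cover the spread between arrays alone, and that spread may be technical. The title of the series concerns the loss of MT1-MMP in tumour angiogenesis and enlargement, and no group is labelled as treated with a DNA-damaging agent.

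Cells mend broken or altered DNA through several pathways. Double-strand breaks are sensed by the MRE11, RAD50 and NBN complex and the kinases ATM and ATR, and are mended by homologous recombination, which copies an intact sister strand and is mostly active in S and G2 phase, or by end joining, which is active throughout the cycle. The Fanconi anaemia pathway opens crosslinks between strands. Base excision repair replaces single damaged bases, mismatch repair corrects copying errors, and nucleotide excision repair removes bulky lesions such as those made by ultraviolet light.

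The arrays were of like brightness, with median signals from 72.9 to 83.1. The spiked hybridisation controls were brighter with MT1-MMP siRNA, at median folds of 2.3 and 1.29 over the mock mean, than in mock cells (0.927 and 1.07) or with alpha3 siRNA (0.812 and 0.841). Their part in the differences below was not tested. Across genes, mock array 1 and alpha3 siRNA array 2 correlated more closely (r = 0.970) than the 2 arrays of any group (0.952 to 0.965). MMP14, the gene of MT1-MMP, had signals of 1971 and 3064 in mock cells, 812 and 717 under its siRNA, and 999 and 1804 under alpha3 siRNA. Its log2 difference from mock was -1.65 with MT1-MMP siRNA (limma adjusted p = 0.139) and -0.86 with alpha3 siRNA (limma adjusted p = 0.851), the latter -0.44 without alpha3 siRNA array 1 and -0.54 without mock array 2. ITGA3, the gene of integrin alpha3, had 1139 and 1290 in mock cells, 1481 and 1634 under MT1-MMP siRNA, and 148 and 347 with its own siRNA, a log2 difference from mock of -2.25 (limma adjusted p = 0.136). Neither target passed the threshold against mock. Of the mesenchymal markers, 8 of 9 lay above the filter. Their summed signal ran from 23233 to 27572 in mock cells, 36804 to 46930 with MT1-MMP siRNA and 23040 to 27311 with alpha3 siRNA. VIM was its largest part (13725 and 13664 in mock cells). With MT1-MMP siRNA 6 of the 8 lay above mock, and S100A4 (-0.28) and THY1 (-0.27) below it. Of the 9 epithelial markers only KRT8 and KRT18 lay above the filter. The summed signal of that list ran from 3064 to 3330, from 2360 to 2760 and from 4251 to 4665 in the same order of groups, without overlap. Of the endothelial markers 1 of 6 measured lay above the filter (sums of 118 to 195, 133 to 182 and 111 to 203), and of the leukocyte markers 2 of 5 (195 to 221, 200 to 209 and 153 to 226). The part of the mesenchymal and epithelial differences in the values below was not tested.

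With MT1-MMP siRNA most repair genes lay below mock, but none of the 40 passed the threshold of a Benjamini-Hochberg adjusted p under 0.05 (lowest limma adjusted p = 0.183). All differences below are on the scale of log2(signal + 32), which understates the change of dim genes. The median difference from mock over the 40 genes was -0.25, against 0.00 over all genes tested. Of the 40, 30 lay below 0 (75%), against 49.7% of all genes. Over all genes the share past the threshold was 0% in this comparison. At an unadjusted p under 0.05, 7 of the 40 were lower (17.5%, against 7.66% of all genes) and 1 was higher (2.50%, against 6.77%). The 7 were RAD50, BRCA1, BARD1, FANCE, FANCG, UNG and MSH6, and the higher one was XPC. Both MT1-MMP siRNA arrays lay below both mock arrays for 21 members (52.5%, against 25.3%) and above them for 5 (12.5%, against 24.6%). In either direction the arrays were apart for 26 of the 40, where they were for 49.9% of all genes, and 14.4% of all genes had an unadjusted p under 0.05.

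**Figure D1:**
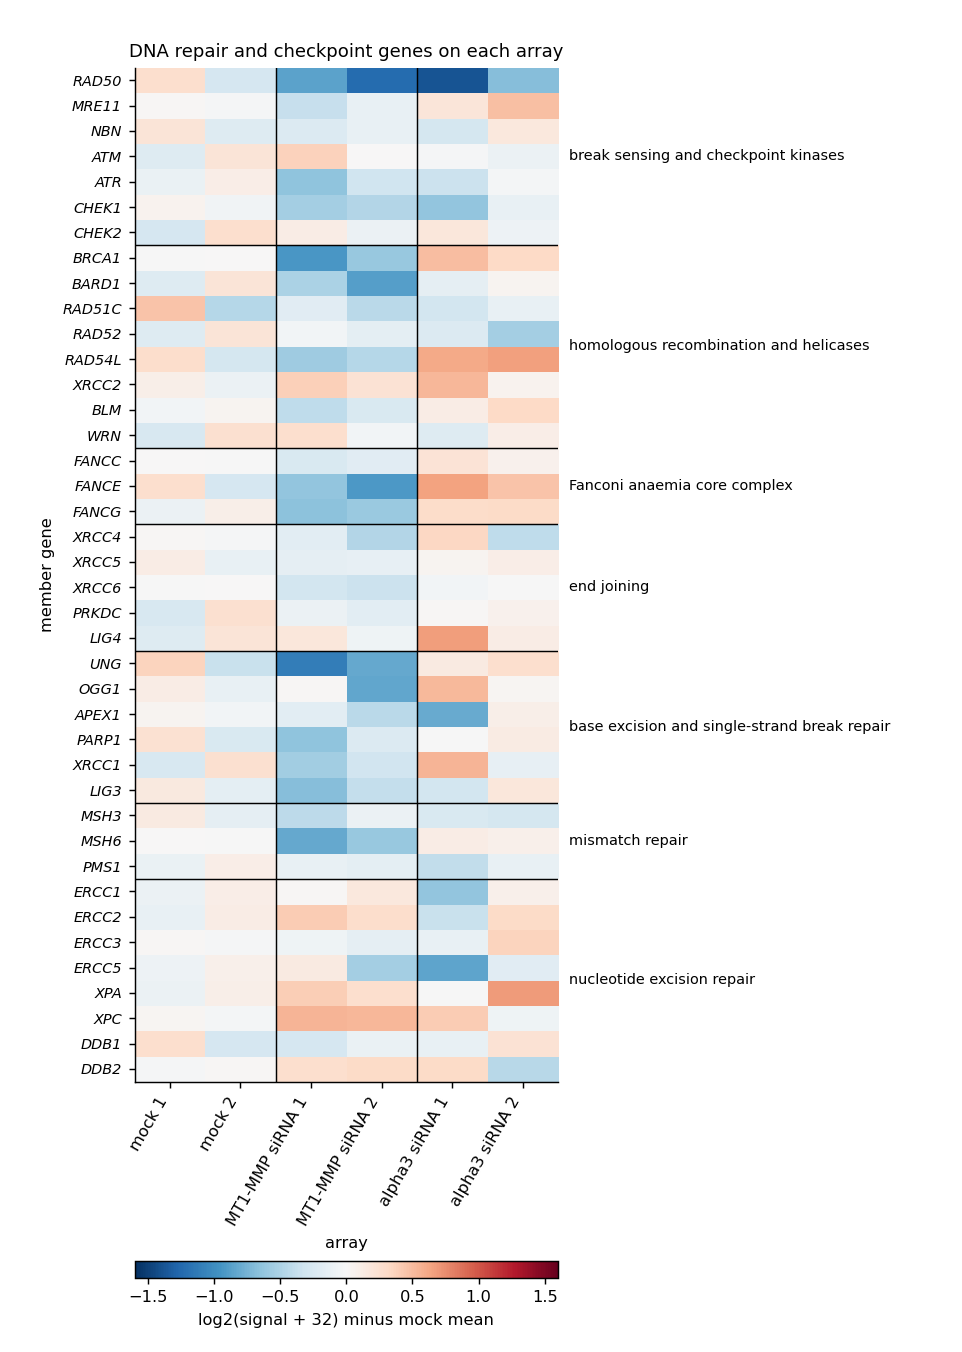
Heat map of log2(signal + 32) of the 40 repair genes on each of the 6 arrays, as the difference from the mean of the 2 mock arrays, with genes ordered by pathway and the colour scale in log2 units. The median over the 40 genes was -0.20 on both MT1-MMP siRNA arrays, and near 0.00 and 0.07 for those of alpha3 siRNA.

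With alpha3 siRNA the same 40 genes lay on both sides of mock. The median difference was 0.04, against -0.01 over all genes, with 19 of the 40 below 0 (47.5%, against 52.0%). None passed the threshold (lowest limma adjusted p = 0.832), and 0.0249% of all genes did. At an unadjusted p under 0.05, RAD50 was lower and RAD54L higher, against 3.22% of all genes lower and 2.51% higher, or 5.73% in either direction. The alpha3 siRNA arrays lay below both mock arrays for 7 members (against 18.0% of all genes) and above them for 8 (against 16.4%), with 34.3% of all genes apart in either direction. Both siRNA groups were compared with the same mock arrays, so these comparisons are not independent.

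Set directly against each other, the siRNA groups differed in 2 members, and both were lower with MT1-MMP siRNA. These were BRCA1 (limma adjusted p = 0.0424) and FANCE (limma adjusted p = 0.0477), among the 1.39% of all genes that passed in this comparison, or 0.572% counting the lower ones and 0.821% the higher ones alone. The arrays of the siRNA groups did not overlap for 17 members that were lower (42.5%, against 25.9%) and 3 that were higher (against 28.0%), and for 53.9% of all genes in either direction. The median difference between the siRNAs over the 40 members was -0.22, against 0.02 over all genes, and 28 of the 40 lay below 0 (70%, against 48.0%). At an unadjusted p under 0.05, 9 were lower (22.5%, against 11.7%) and 0 were higher (against 11.7% of all genes), where 23.4% of all genes met that mark in either direction. Those 9 were MRE11, BRCA1, BARD1, RAD54L, BLM, FANCE, FANCG, UNG and MSH6. Both calls were lost when any 1 of the 6 arrays was left out, with limma adjusted p-values from 0.0701 to 0.268 for BRCA1 and from 0.0521 to 0.203 for FANCE. They were also lost with an offset of 1 in place of 32, with no filter on dim probe sets, and with only the 2 siRNA groups fitted.

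**Figure D2:**
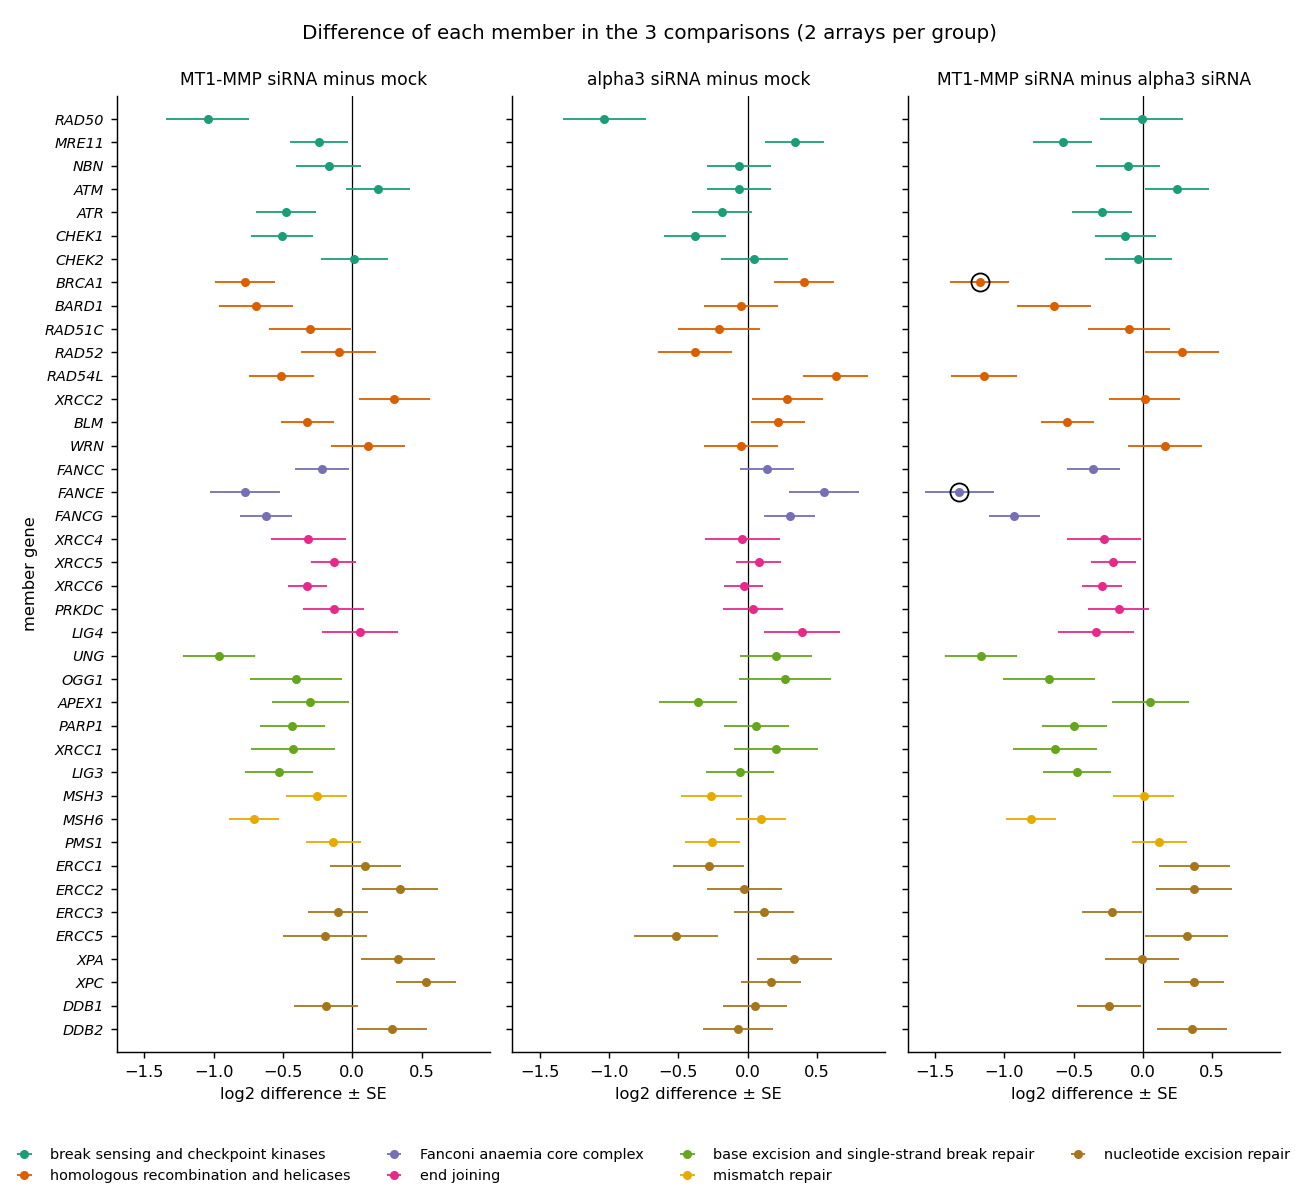
Log2 difference of each of the 40 repair genes in the 3 comparisons, ordered by pathway, with circles around points past an adjusted p of 0.05. Only BRCA1 and FANCE are circled, both in MT1-MMP siRNA against alpha3 siRNA.

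Both MT1-MMP siRNA arrays lay below all 4 other arrays for 14 of the 40 genes (35.0%), as they did for 17.0% of all genes. The 14 were MRE11, BRCA1, BARD1, RAD54L, BLM, FANCC, FANCE, FANCG, XRCC5, XRCC6, UNG, XRCC1, LIG3 and MSH6. Nucleotide excision repair had 0 of 8 such members, and the break sensors and checkpoint kinases 1 of 7 (14.3%), against 17.0% of all genes. With 3 to 8 members tested in each pathway, these counts cannot set a pathway apart. Outside the members, 2 nucleotide excision repair genes did lie so. GTF2H1 was at 336 and 316 against 379 or more, and GTF2H4 at 105 and 111 against 128 or more. The MT1-MMP siRNA arrays lay above all 4 others for XPC alone of the members (2.50%, against 16.3% of all genes).

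The break sensors and checkpoint kinases had a median difference from mock of -0.24 with MT1-MMP siRNA, with 5 of 7 below 0, and of -0.06 with alpha3 siRNA. RAD50, the long coiled-coil subunit that holds broken ends together, had signals of 322 and 214 in mock cells, 131 and 93.7 under MT1-MMP siRNA, and 81.3 and 151 under alpha3 siRNA. Every siRNA array lay below both mock arrays. The share of all genes for which this held was not counted. Taken singly, the MT1-MMP siRNA group lay so for 25.3% of all genes and the alpha3 siRNA group for 18.0%. RAD50 differed from mock by -1.04 with MT1-MMP siRNA (SE 0.30, limma adjusted p = 0.210) and by -1.03 with alpha3 siRNA (limma adjusted p = 0.832, and -0.69 without alpha3 siRNA array 1). A second RAD50 probe set had 125 and 63.4 in mock cells, 35.3 and 62.6 under MT1-MMP siRNA and 45.8 and 80.8 under alpha3 siRNA, differences from mock of -0.62 and -0.39. There the alpha3 siRNA arrays overlapped mock, and the MT1-MMP siRNA arrays lay just below it.

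MRE11, the nuclease of the same complex, had 153 and 148 in mock cells, 109 and 136 under MT1-MMP siRNA, and 177 and 222 under alpha3 siRNA. The 3 groups did not overlap, and MRE11 lay lowest with MT1-MMP siRNA and highest with alpha3 siRNA. The share of all genes whose 3 groups stood apart was not counted, here or for BRCA1, RAD54L, FANCE and FANCG below. In the single comparisons the arrays were apart for 34.3% to 53.9% of all genes, so separation alone does not mark a gene out. MRE11 differed between the siRNAs by -0.58 (SE 0.21, limma adjusted p = 0.151). NBN, the third subunit and the brightest member of this group, had 589 and 436, 429 and 465, and 410.1 and 571 in the same order of groups, which overlapped. Its 4 probe sets differed in sign with MT1-MMP siRNA, from -0.23 to 0.08, and with alpha3 siRNA, from -0.11 to 0.17. ATM, the kinase activated by double-strand breaks, was at 0.19 with MT1-MMP siRNA, with its 3 probe sets from 0.17 to 0.78, and ATR, the kinase activated by stretches of single-stranded DNA, was at -0.48. CHEK1, which ATR activates, was at -0.51 (and -0.29 on its other probe set), and CHEK2, which ATM activates, was at 0.01. With alpha3 siRNA the probe sets of ATM ran from -0.19 to 0.14, and those of ATR were at -0.19 and 0.17.

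In homologous recombination, 6 of 8 members tested lay below mock with MT1-MMP siRNA, with a median of -0.32, and the median with alpha3 siRNA was 0.09. BRCA1, the ubiquitin ligase that promotes resection and recombination, had 129.8 and 133 in mock cells, 53.5 and 74.8 under MT1-MMP siRNA, and 198 and 172 under alpha3 siRNA. The 3 groups did not overlap. BRCA1 was at -0.77 against mock (SE 0.22, limma adjusted p = 0.210) and fell by 1.18 on the log2 scale against alpha3 siRNA (SE 0.22, limma adjusted p = 0.0424). Its difference of 0.41 between alpha3 siRNA and mock did not pass (limma adjusted p = 0.864), and was 0.17 on the other probe set. That second probe set also lay lowest with MT1-MMP siRNA, at 66.9 and 60.3, against 134 and 123 in mock cells and 152 and 146 with alpha3 siRNA.

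BARD1, the partner of BRCA1 in its ligase, had 63.6 and 94.6 in mock cells, 45.6 and 27.6 under MT1-MMP siRNA, and 67.7 and 81.1 under alpha3 siRNA. The MT1-MMP siRNA arrays lay lowest, under the filter's signal. BARD1 differed by -0.69 from mock (SE 0.27, limma adjusted p = 0.290) and by -0.64 from alpha3 siRNA (limma adjusted p = 0.196).

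RAD54L, a motor protein of strand exchange, had 184 and 114 in mock cells, 87.7 and 98 under MT1-MMP siRNA, and 239 and 249 under alpha3 siRNA. The 3 groups again did not overlap. RAD54L was the only member higher with alpha3 siRNA at an unadjusted p under 0.05, by 0.64 (SE 0.24, limma adjusted p = 0.851, and 0.35 without mock array 2). It differed by -1.15 between the siRNAs (limma adjusted p = 0.0543). BLM, the helicase lost in Bloom syndrome, had 235 and 253, 177 and 201, and 268 and 313 in the same order, and differed between the siRNAs by -0.54 (SE 0.19, limma adjusted p = 0.145). RAD51C, a recombination factor and the brightest member here, had 619 and 315, 388 and 320.2, and 356 and 405. Its groups overlapped, and its 2 probe sets were at -0.31 and -0.16 with MT1-MMP siRNA and of opposite sign with alpha3 siRNA (-0.21 and 0.39). The annealing factor RAD52 was at -0.10 under MT1-MMP siRNA and -0.38 under alpha3 siRNA, the recombination factor XRCC2 at 0.30 and 0.29, and the helicase WRN at 0.11 and -0.05.

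The Fanconi anaemia core complex is the ligase that marks crosslinked sites. The 3 members tested from it lay below mock with MT1-MMP siRNA and above it with alpha3 siRNA. Their medians were -0.62 and 0.30. FANCE, which links the complex to its substrate FANCD2, had 165 and 103 in mock cells, 73.1 and 54.3 under MT1-MMP siRNA, and 223 and 191 under alpha3 siRNA. The groups did not overlap. FANCE differed by -0.77 from mock (SE 0.25, limma adjusted p = 0.241) and fell by 1.33 on the log2 scale against alpha3 siRNA (SE 0.25, limma adjusted p = 0.0477). The difference from mock was -0.50 without mock array 1.

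FANCG, a scaffold of the complex, had 362 and 416 in mock cells, 235 and 247 under MT1-MMP siRNA, and 484 and 489.6 under alpha3 siRNA. It kept the same order without overlap. FANCG was at -0.62 against mock (SE 0.19, limma adjusted p = 0.219) and -0.93 against alpha3 siRNA (limma adjusted p = 0.0538). FANCC was at -0.22 and -0.36 in those comparisons. FANCF, the adaptor of the same complex and one of the other repair genes, went the other way, with 175 and 141 in mock cells, 133 and 220.0 under MT1-MMP siRNA and 57.2 and 49.3 under alpha3 siRNA. FANCF was at -1.15 with alpha3 siRNA (limma adjusted p = 0.714).

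**Figure D3:**
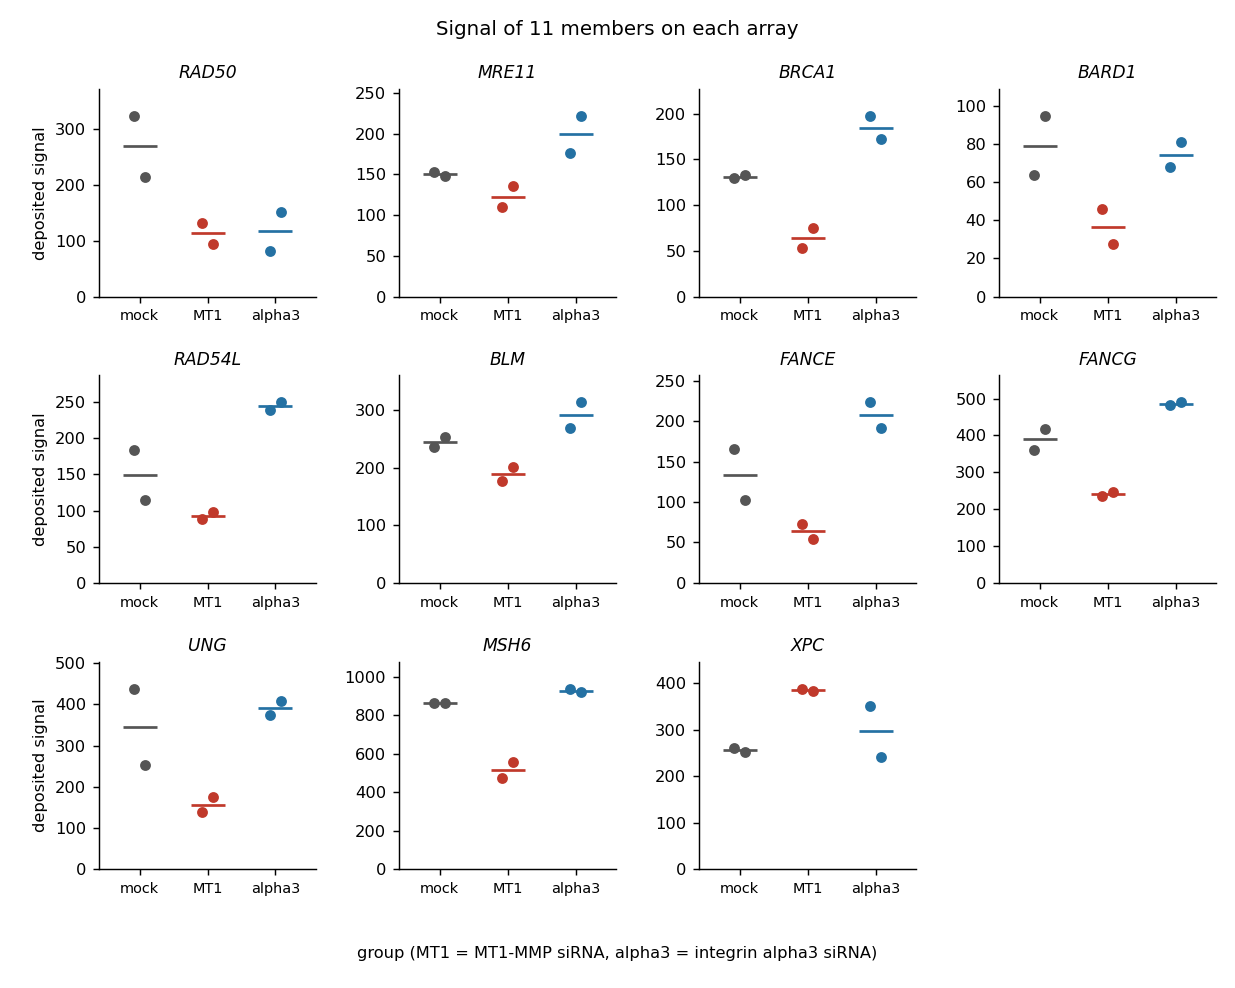
Deposited signal (linear scale, vertical axes from 0) of the 11 repair genes with an unadjusted p under 0.05 in at least 1 comparison and no overlap of arrays in it, with points for the 6 arrays and bars for the group means. MT1-MMP siRNA arrays are lowest for BRCA1 (53.5 and 74.8), FANCE (73.1 and 54.3) and MSH6 (476 and 559), and highest for XPC (387 and 384).

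The end-joining members differed little in size. Their median was -0.13 under MT1-MMP siRNA and 0.04 under alpha3 siRNA, and all 5 lay lower with MT1-MMP siRNA than with alpha3 siRNA, from -0.34 to -0.17. XRCC6, the Ku70 part of the ring that binds broken ends, had 4831 and 4837 in mock cells, 3923 and 3787 under MT1-MMP siRNA, and 4677 and 4797 under alpha3 siRNA. The MT1-MMP siRNA arrays stood below the other 4, at -0.32 against mock (SE 0.14, limma adjusted p = 0.347). Its partner XRCC5, Ku80, was at -0.13 (and -0.38 on its other probe set). The kinase PRKDC was at -0.13 (and -0.03 on its other probe set), the scaffold XRCC4 at -0.32 and the ligase LIG4 at 0.05.

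All 6 members in base excision and single-strand break repair lay below mock with MT1-MMP siRNA, with a median of -0.43. Their median with alpha3 siRNA was 0.13. Most base excision genes among the other repair genes also lay below mock with MT1-MMP siRNA. Among these were NEIL3 (-0.94), TDG (-0.66), NTHL1 (-0.46) and SMUG1 (-0.11). Only MPG (0.41) and POLB (0.24) lay above it. UNG, the glycosylase that removes uracil from DNA, had 438 and 254 in mock cells, 139 and 175 under MT1-MMP siRNA, and 374 and 409 under alpha3 siRNA. Both MT1-MMP siRNA arrays lay under the rest, while mock and alpha3 siRNA overlapped. UNG differed by -0.96 from mock (SE 0.26, limma adjusted p = 0.199, and -0.61 without mock array 1) and by -1.17 from alpha3 siRNA (limma adjusted p = 0.0607). APEX1, the endonuclease that cuts at the bare site left by a glycosylase, was the brightest member, with 1829 and 1711, 1566 and 1302, and 1001 and 1882. Its 2 alpha3 siRNA arrays stood on either side of mock. The glycosylase OGG1, which removes oxidised guanine, was at -0.40 with MT1-MMP siRNA, the break sensor PARP1 at -0.43, the scaffold XRCC1 at -0.43 and the ligase LIG3 at -0.53. None of these passed.

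All 3 mismatch repair members lay below mock with MT1-MMP siRNA, with a median of -0.26, and the median with alpha3 siRNA was -0.25. MSH6, which takes part in recognising single mispaired bases, had 866 and 863 in mock cells, 476 and 559 under MT1-MMP siRNA, and 937 and 919.6 under alpha3 siRNA. The mock arrays were nearly equal and the MT1-MMP siRNA arrays far below them. MSH6 had the lowest limma adjusted p of any member against mock, at -0.71 (SE 0.18, limma adjusted p = 0.183), and differed by -0.81 from alpha3 siRNA (limma adjusted p = 0.0607). Its other probe set was at -0.97 and -1.46. MSH3 (-0.26, and 0.15 on its other probe set) and PMS1 (-0.14) were nearer to mock.

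The 8 nucleotide excision repair members had a median difference from mock of 0.19 under MT1-MMP siRNA. Of these, 5 lay above 0 and 3 below it (37.5%, against 49.7% of all genes). Their median for alpha3 siRNA was 0.02. Genes of this pathway among the other repair genes went both ways under MT1-MMP siRNA. GTF2H1 was at -0.51 and ERCC8 at -0.33, and CETN2 was at 0.25 and GTF2H3 at 0.18. XPC, which first recognises bulky lesions, had 262 and 251 in mock cells, 387 and 384 under MT1-MMP siRNA, and 352 and 242 under alpha3 siRNA. Both MT1-MMP siRNA arrays lay above all others, while the alpha3 siRNA arrays spanned mock. XPC differed from mock by 0.53 (SE 0.22, limma adjusted p = 0.312). DDB1, the adaptor of the ultraviolet damage ligase and the brightest member, had 1259 and 864, 864 and 963, and 960 and 1227, which overlapped, and its partner DDB2 was at 0.28. The helicases of the opening complex were at 0.34 (ERCC2) and -0.10 (ERCC3), the nucleases at 0.09 (ERCC1, and 0.28 on its other probe set) and -0.20 (ERCC5), and the damage-verifying factor XPA at 0.33.

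Upstream sequence is shown for UNG and XPC, the ones of the 11 genes above that hold an E2F word, to set a lower and a higher gene side by side. It is also shown for BRCA1 and FANCE, the 2 genes past the threshold, chosen after their values were seen. E2F factors control many genes of S phase, and their words searched were TTTCCCGC, TTTCGCGC, TTTGCCGC and TTTGGCGC. The word CCAAT, bound by NF-Y, and TTTGAA, a cell cycle element, were searched too, on both strands, in the 250 bases before each start listed by RefSeq (GRCh38.p14). Capitals mark E2F and CCAAT words. The UNG stretch lies inside the UNG gene at chr12:109098099-109098126 (plus strand), with its word starting 63 bases before the second of 2 listed starts. The XPC stretch is chr3:14178825-14178851 (minus strand), within LSM3, and its word starts 241 bases before the start. That of BRCA1 is chr17:43125525-43125549 (minus strand), within BRCA1 downstream of a farther start and within NBR2. That of FANCE is chr6:35452088-35452337 (plus strand), the whole window, which holds none of the E2F or CCAAT words.
UNG: agggaggtttTTTGCCGCgaaaagacca
XPC: cctgcgcccTTTCCCGCctctcgcgag
BRCA1: gactgggtggCCAATccagagcccc
FANCE: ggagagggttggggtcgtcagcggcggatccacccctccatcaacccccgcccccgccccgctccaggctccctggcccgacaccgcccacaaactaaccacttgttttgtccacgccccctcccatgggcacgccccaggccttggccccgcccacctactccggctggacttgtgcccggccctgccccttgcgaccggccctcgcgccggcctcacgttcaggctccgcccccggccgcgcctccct

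An E2F word was in 4 of the 55 windows of members above the filter (7.27%), in 2.79% of all 35116 windows and in 4.13% of those of genes tested. It was in 12 of the 39 windows of DNA replication genes (30.8%). CCAAT was in 41.8% of the members' windows, 33.6% of those of genes tested and 64.1% of those of replication genes, and TTTGAA in 9.09% of the members' windows, 9.55% of those of genes tested and 13.3% of all. UNG, which was lower with MT1-MMP siRNA at an unadjusted p under 0.05, and XPC, which was higher, each hold an E2F word. A match is a description of letters, not of a bound site.

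Among other DNA repair genes, 69 lay above the filter, and the list also held factors of replication and cell cycle control such as FEN1, TIPIN and CDC25A. With MT1-MMP siRNA their median was -0.19, with 50 of 69 below 0 (72.5%, against 49.7% of all genes). At an unadjusted p under 0.05, 12 were lower (17.4%, against 7.66%) and 0 higher (against 6.77%), but 0 passed the threshold. FEN1 and TIPIN were among the 12. RMI1, a partner of BLM, had 263 and 344 in mock cells, 121 and 121 under MT1-MMP siRNA, and 232 and 289 under alpha3 siRNA, a difference from mock of -1.12 (limma adjusted p = 0.139). The nuclease EXO1 (-0.88) and the glycosylase NEIL3 (-0.94) each had a limma adjusted p of 0.165. With alpha3 siRNA the median of the 69 was -0.02, and between the siRNAs it was -0.26.

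DNA replication genes lay further below mock than the members did. Their median was -0.79 with MT1-MMP siRNA, with 31 of 32 below 0, and 0.10 with alpha3 siRNA. The exception was RFC5, at 0.79 with MT1-MMP siRNA (limma adjusted p = 0.176). Between the siRNAs 6 were called lower (18.8%, against 0.572% of all genes). The MT1-MMP siRNA arrays lay below all 4 others for 26 of the 32 (81.2%, against 17.0% of all genes). CDC45, a part of the replicative helicase, had 259.6 and 145 in mock cells, 16.6 and 21.7 under MT1-MMP siRNA, and 213 and 201 under alpha3 siRNA. It was at -2.15 against mock (limma adjusted p = 0.0539) and fell by 2.22 on the log2 scale against alpha3 siRNA (limma adjusted p = 0.0232). Both of its MT1-MMP siRNA signals lay under the filter's signal, so the size of these differences depends on the offset. POLA1 (-1.13), RRM2 (-1.32) and MCM2 (-1.07) lay lower than mock, without passing, and all 3 fell against alpha3 siRNA (limma adjusted p from 0.0277 to 0.0329). The part of this difference in the values of the repair genes was not tested. Fewer cells in S phase and less RNA of these genes per cell cannot be told apart in RNA of whole cultures.

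The p53 targets, genes that p53 induces after DNA damage, had a median of 0.11 with MT1-MMP siRNA over 13 genes, -0.08 with alpha3 siRNA and 0.35 between the siRNAs. CCNG1, cyclin G1, the one of them that passed, had 1820.3 and 1795 in mock cells, 4229 and 3146 under MT1-MMP siRNA, and 1605 and 1158 under alpha3 siRNA. It rose against alpha3 siRNA by 1.40 on the log2 scale (limma adjusted p = 0.0303), where 0.821% of all genes were called higher. The 13 targets went both ways in that comparison. The arrays did not overlap for 7 that were higher (53.8%, against 28.0% of all genes). They did not overlap for 4 that were lower (30.8%, against 25.9%), with GADD45A (-0.605) and PLK3 (-0.60) among these.

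**Figure D4:**
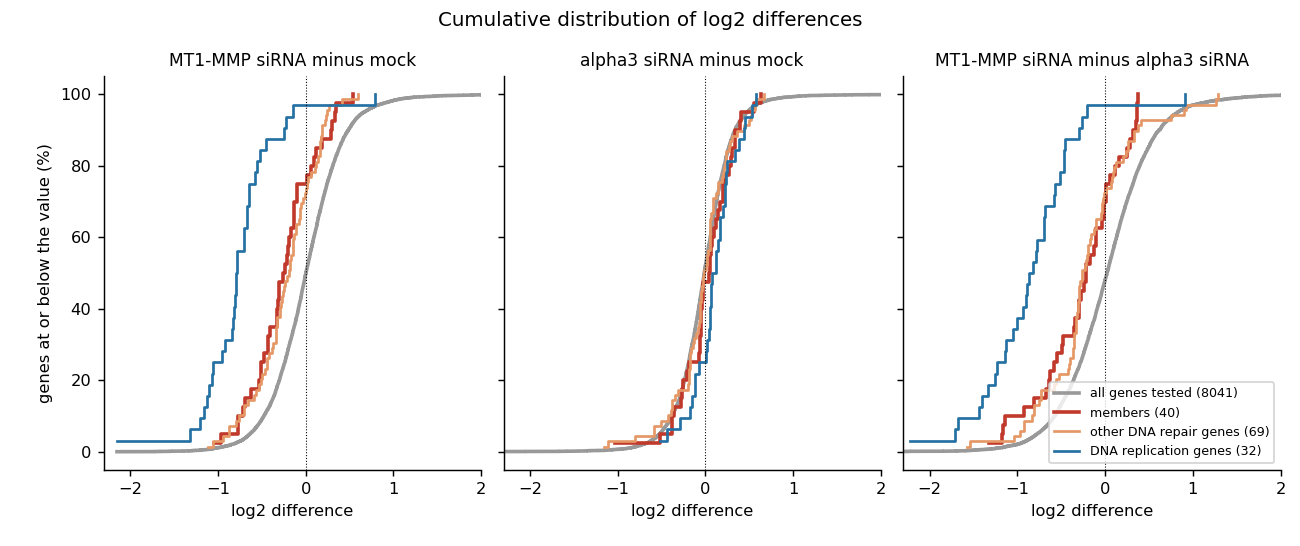
Cumulative share of genes (percent) at or below each log2 difference in the 3 comparisons, for all 8041 genes tested, the 40 repair genes, the 69 other repair genes and the 32 replication genes. Against mock with MT1-MMP siRNA the medians were 0.00, -0.25, -0.19 and -0.79.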

How the data were processed

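Total RNA of the 6 HT1080 arrays was analysed from the deposited intensity of each probe set, a linear value made by the authors. The mean of the middle 96% of values was 249.5 to 249.9 on every array, so the values had been scaled before deposit. The summarisation, background method and detection calls behind them were not given in the sources used here. Probe sets were named from the platform annotation: of 22283, 19065 had 1 gene symbol, 1043 several and 2107 none, and 68 were controls. Values below 1 were raised to 1 before log2(value + 32). Probe sets above the 40th percentile of the mean log2 value (6.31) were kept, and the brightest stood for its gene (14 members had 2 or more). limma 3.58.1 in R 4.3.3 fitted 3 group means on all 6 arrays (eBayes with trend, 3 residual and 5.34 prior degrees of freedom), and p-values were adjusted over all 8041 genes by Benjamini-Hochberg. The fit was also run on simulated data with known shifts, drawn independently from its own model. That run cannot show whether the model holds for these arrays. Motifs and figures used Python 3.11.15 and matplotlib 3.10.9.

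The members and lists were chosen with earlier results of these data known. Values on every array are given for members whose arrays did not overlap in a comparison and whose unadjusted p there was under 0.05, the brightest of each pathway and both targets, and up to 4 genes are named from each of the other repair and replication lists. CCNG1, GADD45A, PLK3, the examples of further probe sets and the further genes named from those lists were chosen after their values were seen. Beside a difference printed for a member, that of another probe set is given where it has another sign or is over 1.5 times apart. XRCC3 was read by a probe set under the filter. ATM, XRCC2 and XRCC4 were read by probe sets that can also bind related sequences. The alternatives were other scalings, offsets, filters, probe set rules, fits and leaving out each array. The 2 arrays of a group held the same value on at most 78 probe sets, so they were not copies of each other. Each counted as 1 replicate, though this cannot show that they came from separate cultures. The number of arrays limits the precision.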

Additional observations from a re-analysis of the deposited data

How the results depend on the processing

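With MT1-MMP siRNA against mock, the genes passing numbered 0, and 1 with quantile normalization, 3 with an offset of 1, 6 with an offset of 100, 2 with averaged probe sets or with every probe set, 7 with only the 2 groups fitted and 0 to 8 when 1 array was left out. With alpha3 siRNA against mock they numbered 2, and 1 with quantile normalization, an offset of 100, no filter, every probe set or only the 2 groups, 0 with an offset of 1 or a filter at the 60th percentile, and 0 to 9 without 1 array. Between the siRNAs they numbered 112, and 69 with an offset of 1, 22 with no filter, 178 with a filter at the 60th percentile, 72 with no trend and 0 to 83 without 1 array (0 without either MT1-MMP siRNA array). The cause of these moves was not tested. No scaling moved the median of all genes by over 0.1.

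The members passing between the siRNAs numbered 2, and 0 with an offset of 1, with no filter, with only the 2 groups and without any 1 of the arrays (0 to 0), and 1 with no trend. They numbered 3 with averaged probe sets or every probe set, where MSH6 also passed (adjusted p = 0.0473 when averaged). With a filter at the 60th percentile BRCA1 and FANCE were left out, and RAD54L and FANCG passed. In the other comparisons 0 members passed under every alternative run. The members' median with MT1-MMP siRNA against mock was -0.28 with quantile normalization, -0.30 with an offset of 1, -0.18 with an offset of 100 and -0.30 to -0.20 without 1 array. With alpha3 siRNA against mock it turned to -0.029 with a filter at the 60th percentile and to -0.017 with every probe set, and ran from -0.003 (without alpha3 siRNA array 2) to 0.10 without 1 array. Between the siRNAs it ran from -0.32 to -0.16 without 1 array.

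The replicate numbers did not pair the arrays: correlations of same-numbered deviations were -0.18, -0.17 and 0.13. With replicate as a block, 11 genes passed with MT1-MMP siRNA against mock, 4 with alpha3 siRNA against mock and 114 between the siRNAs, where 1 member passed (FANCE, adjusted p = 0.0342, with BRCA1 at 0.0537).

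ITGA3 passed against mock without alpha3 siRNA array 2 (-2.79, adjusted p = 0.0155) and in the blocked fit (adjusted p = 0.0426). None of the differences tried under the alternatives for the 11 members plotted by signal and both targets reversed. With an offset of 100, BRCA1 was at -0.50 against mock, FANCE at -0.50 and BARD1 at -0.39, and BARD1 was at -1.11 with an offset of 1. The 2 arrays a group limit the precision, and signals under that of the filter, as of BARD1 and CDC45 with MT1-MMP siRNA, have no detection call to set beside them.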
